A study of Homo sapiens with 3 samples.

Results

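The angiopoietins, the TIE receptors and the angiopoietin-like (ANGPTL) genes were followed through a knockdown of NONO, an RNA- and DNA-binding protein, in UM-UC-3, a human bladder cancer cell line. The rule named 7 genes and kept those listed in all 3 library tables, which left TIE1, TEK, ANGPT1, ANGPT2, ANGPTL4 and ANGPTL6, or 6 of the 21308 genes listed in all 3. ANGPTL2 was not analysed here. The members were chosen by gene name with the CPM values and log2 folds of these same libraries known, and being listed in each table depends on the level, so the values below are a description and no test of the choice. The cells received NONO siRNA 1, NONO siRNA 2 or a negative control siRNA, in each case at 75 nM for 48 h, delivered with the same lipid reagent. Each treatment gave 1 paired-end library of total RNA, and the labels do not say whether the cultures were separate, so spread between the NONO libraries may be technical and includes the difference between their siRNAs. A single cell line and a single control library limit what can be read from these data.

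Angiopoietins are secreted ligands of TEK (also called TIE2), a receptor tyrosine kinase of the endothelium. ANGPT1 activates TEK and steadies vessels, ANGPT2 mostly opposes it, and TIE1 is a related receptor that binds no angiopoietin strongly by itself and modulates TEK. ANGPTL proteins share the coiled-coil and fibrinogen-like layout of angiopoietins but do not bind TEK. ANGPTL4 inhibits lipoprotein lipase and is induced by fasting, PPAR ligands and low oxygen.

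The siRNAs are shown because any short match between them and a member is a property of the reagent. The labelled strands, 5′ to 3′ with their TT overhangs, were as follows.
NONO siRNA 1: ggcgaagucuucauucauatt
NONO siRNA 2: gcaucccuuacaguucgaatt
Control siRNA: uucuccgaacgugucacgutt
Without the overhang, the labelled strands of both NONO siRNAs were identical to part of NONO transcripts and of those of 1 other gene. Their complementary strands are therefore the ones that can pair with NONO RNA. Neither strand of the control siRNA matched any annotated transcript in full, and the labels do not say which of its strands is given. The strands complementary to the labelled ones, without overhang and with the seed (positions 2 to 8) in capitals, were as follows.
NONO siRNA 1: uAUGAAUGaagacuucgcc
NONO siRNA 2: uUCGAACUguaagggaugc
Control siRNA: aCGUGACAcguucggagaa

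Sites of 7 bases complementary to a seed were searched in 1 protein-coding transcript per gene. TIE1 (transcript TIE1-201) held no site for either strand of siRNA 1. It held 1 site for the complementary strand of siRNA 2 and 2 sites for the labelled strand of the control siRNA, all in coding sequence. TEK (transcript TEK-201) also held a coding site for the complementary strand of siRNA 2, and 1 coding site each for the labelled strands of siRNAs 1 and 2. Of these sites, the siRNA 2 site that the receptors share and the control siRNA sites of TIE1 are given here. They are shown with 11 bases on each side and the site in capitals.
TIE1 exon 9, siRNA 2 site, chr1:43309428-43309434: gaccacagctgAGTTCGAggtgccccgct
TEK exon 2, siRNA 2 site, chr9:27158093-27158099: tgtgaagggcgAGTTCGAggagaggcaat
TIE1 exon 14, control siRNA site, chr1:43313935-43313941: agctgcctgcaTCGGAGAcgcaccttcac
TIE1 exon 18, control siRNA site, chr1:43319272-43319278: gaatgtgctggTCGGAGAgaacctagcct
Coordinates are those of the capitals on GRCh38, plus strand, from GENCODE 29. Among 11780 transcripts of tested genes, 10.5% held this siRNA 2 site and 11.5% the control site. The sites of the labelled strands of siRNAs 1 and 2, found in TEK, were held by 6.1% and 23.6%. ANGPT1 held 1 coding site for the labelled control strand, and ANGPTL4 held none of the sites searched. ANGPT2 held 1 site for the complementary strand of siRNA 2 in its 3′ UTR, where 4.19% of the transcripts held it. ANGPTL6 held 1 site for the complementary strand of siRNA 1 in its 3′ UTR. Of the transcripts, 21.8% held this site anywhere and 13.8% in the 3′ UTR. A match describes the sequence and says nothing of whether the siRNA acted on it.

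The CPM size of 1 read implied totals of 29408573 counted reads with NONO siRNA 1, 28594569 with siRNA 2 and 27681990 with control siRNA. These are inferred and are not reported sequencing depths. NONO itself stood at 79.5 and 104 CPM (a gene's reads scaled to the library's total, as the authors gave them) with siRNAs 1 and 2, against 823 CPM with control siRNA, and fell in limma's test (adjusted p = 0.00698). The test covered the 13922 genes that reached 1 CPM in any library. Of these, 19 rose (0.136%) and 11 fell (0.079%) with NONO siRNA at a limma adjusted p under 0.05, together 0.215%, while with TMM scaling 1 rose and 3 fell. The median log2 fold of all genes tested was 0.025 with siRNA 1 and 0.0073 with siRNA 2. As for the cell type, 8 of 13 urothelial and epithelial markers were analysed. Their CPM summed to 95.8 and 182 with siRNAs 1 and 2, against 193 with control siRNA, nearly all from the epithelial keratins KRT18 and KRT8. KRT18 stood at 49.0 and 93.3 CPM with siRNAs 1 and 2, against 111 CPM with control siRNA. KRT8 stood at 43.0 and 85.4 CPM, against 77.1 CPM, so its siRNA 2 library lay above the control. GATA3 stood at 2.04 and 1.12 CPM, against 1.44 CPM. TP63 stood at 0.816 and 1.22 CPM, against 1.66 CPM, and KRT7 at 0.306 and 0.455 CPM, against 1.3 CPM. KRT19 and the uroplakins UPK1A and UPK2, the uroplakins being defining genes of mature urothelium, stayed under 1 CPM in every library.

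The family split into members well above 1 CPM and members below it. TIE1, ANGPT1 and ANGPTL4 were tested, and TEK, ANGPT2 and ANGPTL6 stayed under the limit of 1 CPM in all libraries. None of the 3 tested members passed limma's test, where the share called among all genes was 0.215%, and 1 of them, TIE1, had an unadjusted p under 0.05, as did 1587 or 11.4% of all genes tested. On reads recovered from the CPM steps, edgeR called none of 5 members, where it called 0.92% of all genes. DESeq2 called none of 6, of which TEK, ANGPT2 and ANGPTL6 were given no adjusted p. Of 21308 genes, DESeq2 called 138 higher and 60 lower. In both edgeR and DESeq2, TIE1 alone of the members had an unadjusted p under 0.05. In limma over all 21308 genes, without the limit of 1 CPM, no member did.

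**Figure D1:**
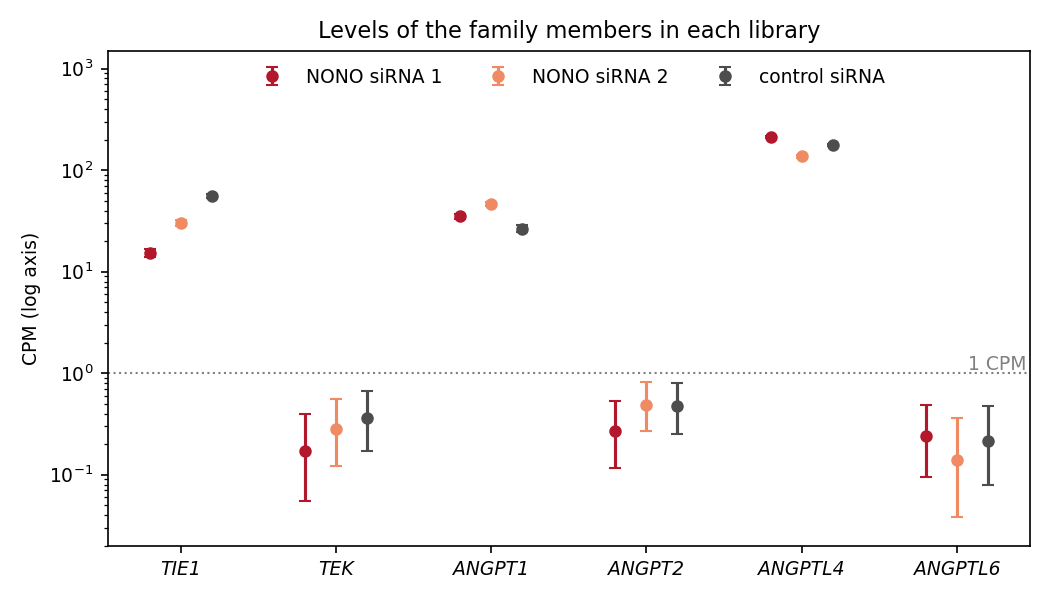
CPM of the 6 members (log axis) in the NONO siRNA 1, NONO siRNA 2 and control siRNA libraries. Points are single libraries and bars exact 95% Poisson intervals of the read count, which cover counting error only; TIE1 is lowest with siRNA 1, ANGPT1 is higher in both NONO libraries, and TEK, ANGPT2 and ANGPTL6 lie under the dotted line at 1 CPM with overlapping intervals.

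TIE1, the receptor without a strong angiopoietin ligand of its own, had the largest difference of the tested members. TIE1 (ENSG00000066056, GRCh38 chromosome 1, 43300993 to 43323108, plus strand) gave 454 reads with NONO siRNA 1, which is 15.4 CPM (14.1 to 16.9 as the exact 95% interval of a Poisson count). It gave 863 reads with siRNA 2, or 30.2 CPM (28.2 to 32.3). The control siRNA library held 1543 reads, or 55.7 CPM (53.0 to 58.6). Both NONO libraries thus lay below the control, with no overlap of the counting intervals, and siRNA 1 lay below siRNA 2. All Poisson intervals here cover counting error only, since read pairs are not independent molecules. Lower counts in bulk RNA can come from fewer cells with the transcript or from less of it per cell, and these cannot be told apart.

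The log2 fold of TIE1 on the log2(CPM + 1) scale was -1.79 with siRNA 1 and -0.86 with siRNA 2. Their mean was -1.33 (SE 0.37, n = 2 against 1), with an unadjusted p of 0.00658 and an adjusted p of 0.208 in limma. The adjusted p was 0.0851 in edgeR and 0.0842 in DESeq2. Lower values in both NONO libraries were seen in 34.5% of all genes tested, and 24 genes, or 0.172%, were at least as low as TIE1 with each siRNA, TIE1 included. By the mean log2 fold, 65 tested genes lay lower. The level with siRNA 1 was 0.512 of that with siRNA 2 (95% counting interval 0.456 to 0.574), and with 1 library per siRNA this difference has no replicate check.

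TEK, the angiopoietin receptor itself, was close to undetected. TEK (ENSG00000120156, chromosome 9, 27109141 to 27230175, plus strand) gave 5 reads with siRNA 1 and 8 reads with siRNA 2, against 10 reads with control siRNA. These counts correspond to 0.17 CPM (0.0552 to 0.397), 0.28 CPM (0.121 to 0.551) and 0.361 CPM (0.173 to 0.664). The ratio to control was 0.471 with siRNA 1 (counting interval 0.126 to 1.51) and 0.774 with siRNA 2 (0.266 to 2.18), so a difference of TEK was not detectable at this depth. Per kb of annotated exons, TIE1 stood above TEK by a factor of 65.2 with siRNA 1 (27.7 to 202), 77.4 with siRNA 2 (39.1 to 180) and 111 with control siRNA (60.1 to 231). Per kb of the searched coding transcript, these factors were 111 and 132, against 189.

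Markers of endothelium, where both receptors are known, were read beside TIE1. Of 12 endothelial markers 8 were analysed, and their CPM summed to 6.22 and 10.1 with siRNAs 1 and 2, against 8.38 with control siRNA. None of the 8 was at 0 reads, and 5 stayed under 1 CPM in every library. VWF, a defining marker, gave 1 and 2 reads with siRNAs 1 and 2 and 4 reads with control siRNA. PECAM1, another, stood at 0.85 and 1.29 CPM, against 1.73 CPM in the control, and ROBO4, an endothelial guidance receptor, at 4.18 and 6.47 CPM, against 3.58 CPM. PECAM1 and ESAM (0.748 and 1.71 CPM, against 2.46 CPM) ranked the libraries as TIE1 did, whereas ROBO4 did not. VWF, EMCN, CLDN5 and TAL1, with at most 4 reads, had too few to be ranked. So did ERG, with 6 and 9 reads with siRNAs 1 and 2, against 5 reads in the control. The part of endothelial markers in the TIE1 difference was not tested.

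ANGPT1, the activating ligand of TEK, stood higher in both NONO libraries. ANGPT1 (ENSG00000154188, chromosome 8, 107249482 to 107498055, minus strand) gave 1036 reads with siRNA 1, or 35.2 CPM (33.1 to 37.4). It gave 1330 reads with siRNA 2, or 46.5 CPM (44.0 to 49.1), against 737 reads, or 26.6 CPM (24.7 to 28.6), with control siRNA. The intervals of the 3 libraries did not overlap, and siRNA 2 gave the highest level. The log2 fold was 0.39 with siRNA 1 and 0.78 with siRNA 2, and their mean of 0.59 (SE 0.28, n = 2 against 1) had a limma adjusted p = 0.476, so the test was not passed. Higher values in both NONO libraries were seen in 37.8% of all genes tested, and 3.87% were at least as high as ANGPT1 with each siRNA.

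ANGPT2, the ligand that mostly opposes TEK signalling, was near the detection limit. ANGPT2 (ENSG00000091879, chromosome 8, 6499651 to 6563409, minus strand) gave 8 and 14 reads with siRNAs 1 and 2, against 13 reads with control siRNA, or 0.272, 0.49 and 0.47 CPM. The ratio to control was 0.579 with siRNA 1 (counting interval 0.208 to 1.51) and 1.04 with siRNA 2 (0.455 to 2.41). ANGPT2 lies inside MCPH1, a gene on the opposite strand at 30.4 and 29.8 CPM with siRNAs 1 and 2 and 31.9 CPM with control siRNA. The annotated exons of ANGPT2 share 78 bases, or 1.15% of their length, with those of MCPH1, and whether reads were counted by strand is not given in the sources used here.

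TIE1 and ANGPT1 exchanged their order between the NONO and control libraries. Per kb of annotated exons, TIE1 stood at 2.31 and 4.51 CPM with siRNAs 1 and 2, against 8.33 CPM with control siRNA. ANGPT1 stood at 4.94 and 6.53 CPM per kb, against 3.74 CPM per kb. The ratio of ANGPT1 to TIE1 was therefore 2.14 with siRNA 1 (counting interval 1.92 to 2.4) and 1.45 with siRNA 2 (1.33 to 1.58), against 0.449 with control siRNA (0.41 to 0.49). It does not depend on how the libraries are scaled. With the length of the searched coding transcript in place of all exons it was 2.05 and 1.38, against 0.429. This ratio was formed after both values had been seen, is not tested and has no replicate of the control.

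**Figure D2:**
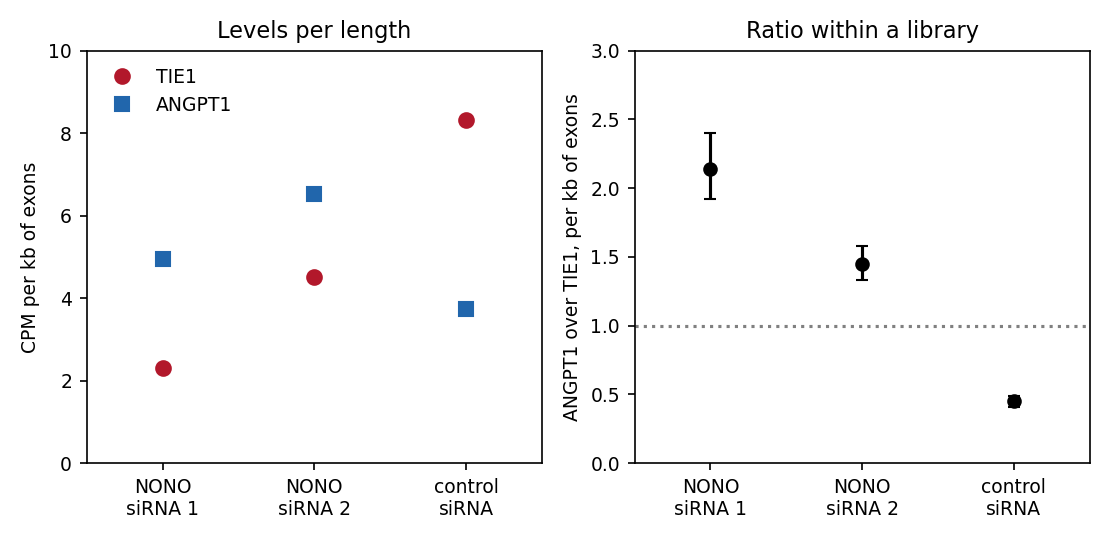
Left, CPM per kb of annotated exons of TIE1 and ANGPT1 in each library; right, their ratio within each library, with 95% counting intervals and a dotted line at equal levels. ANGPT1 lies above TIE1 with NONO siRNA 1 and siRNA 2 (ratios 2.14 and 1.45) and below it with control siRNA (0.449).

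ANGPTL4, the lipase inhibitor, had the highest level per length of the members and lay on opposite sides of the control with the siRNAs. ANGPTL4 (ENSG00000167772, chromosome 19, 8363289 to 8374373, plus strand) gave 6271 reads with siRNA 1, or 213 CPM (208 to 219). It gave 3917 reads with siRNA 2, or 137 CPM (133 to 141), against 4921 reads, or 178 CPM (173 to 183), with control siRNA. The control lay between the NONO libraries, an arrangement seen in 27.7% of all genes tested. The log2 fold was 0.26 with siRNA 1 and -0.37 with siRNA 2, so the mean of -0.06 (SE 0.29, limma adjusted p = 0.963) hides opposite signs. The level with siRNA 1 was 1.56 times that with siRNA 2 (counting interval 1.5 to 1.62), without a replicate check, and 5.49% of the genes tested had opposite signs and a gap at least this wide. Per kb of exons ANGPTL4 stood at 85.9 and 55.2 CPM with siRNAs 1 and 2, against 71.6 CPM with control siRNA, ahead of every other member in each library. This placed it at or above 98.3%, 96.8% and 97.8% of the genes with a known length. Its exons share 1 base with RAB11B-AS1 on the opposite strand, which stayed under 1 CPM in every library. TIE1 stood at or above 56.0% and 66.1% of them, against 76.7%, and ANGPT1 at or above 67.5% and 72.2%, against 63.3%.

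ANGPTL6, an angiopoietin-like factor also called AGF that acts on skin, vessels and metabolism in mice, was also near the detection limit. ANGPTL6 (ENSG00000130812, chromosome 19, 10092338 to 10102796, minus strand) gave 7 and 4 reads with siRNAs 1 and 2, against 6 reads with control siRNA. The ratio to control was 1.1 with siRNA 1 (counting interval 0.316 to 3.96) and 0.645 with siRNA 2 (0.134 to 2.72), so no difference was detectable at this depth. Its exons share 442 bases, or 20.3% of their length, with SHFL on the opposite strand, which stood at 4.56 and 5.77 CPM, against 6.47 CPM, so even these few reads are uncertain. Per kb of exons the order was ANGPTL4 first in each library, then ANGPT1 and TIE1 with NONO siRNA and TIE1 and ANGPT1 with control siRNA. TEK, ANGPT2 and ANGPTL6 came last, in an order that differed between libraries and with counting intervals that overlapped in each.

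The other family members analysed were low, none above 5.11 CPM in any library. Of 6 further angiopoietin and ANGPTL genes 4 were analysed, and 3 of these stayed under 1 CPM in every library. ANGPT4, another TEK ligand, was the exception, with 81 reads or 2.75 CPM with siRNA 1 and 146 reads or 5.11 CPM with siRNA 2, against 86 reads or 3.11 CPM with control siRNA. Its log2 folds of -0.13 and 0.57 had opposite signs (limma adjusted p = 0.868).

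**Figure D3:**
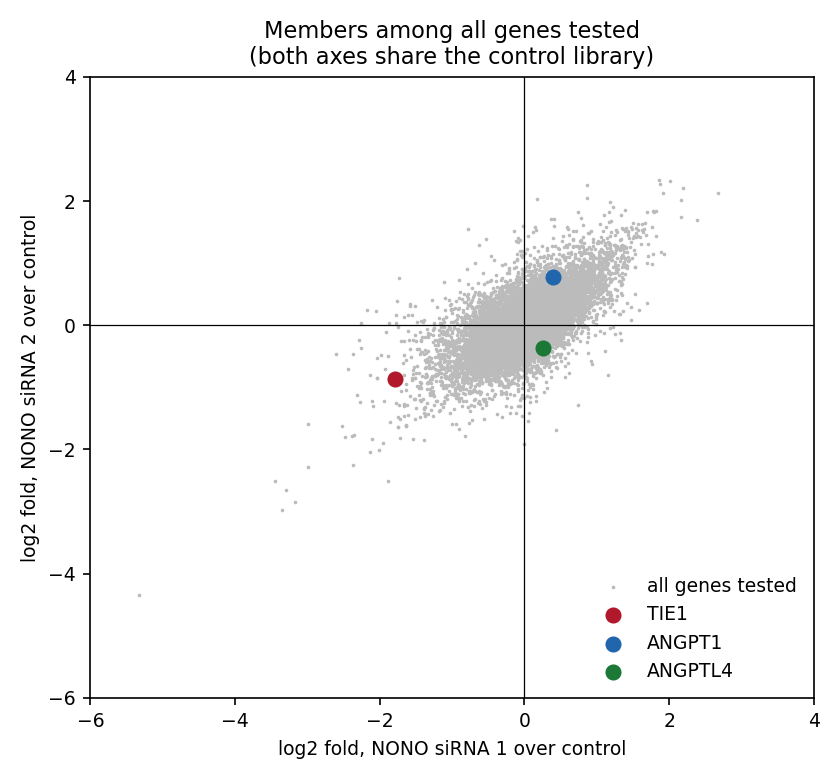
Log2 fold over control (log2(CPM + 1) scale) with NONO siRNA 1 (x axis) and NONO siRNA 2 (y axis) for all 13922 genes tested (grey) and the 3 tested members (colours). The axes share 1 control library, so the diagonal spread of the grey cloud is no measure of agreement; TIE1 lies at -1.79 and -0.86, ANGPT1 at 0.39 and 0.78, and ANGPTL4 at 0.26 and -0.37.

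The upstream sequences of TIE1 and ANGPTL4 are shown because TIE1 had the lowest fold of the tested members and ANGPTL4 the highest level. Both are upstream of a start annotated by RefSeq (GRCh38.p14, plus strand) and hold no base of an annotated exon of their gene. The ANGPTL4 window lies inside the gene as GENCODE 29 bounds it, since that annotation also has a start further upstream. In the TIE1 window, chr1:43300732-43300981, the capitals mark GGAA on either strand, the core read by ETS factors, which are known to act on TIE promoters.
TIE1: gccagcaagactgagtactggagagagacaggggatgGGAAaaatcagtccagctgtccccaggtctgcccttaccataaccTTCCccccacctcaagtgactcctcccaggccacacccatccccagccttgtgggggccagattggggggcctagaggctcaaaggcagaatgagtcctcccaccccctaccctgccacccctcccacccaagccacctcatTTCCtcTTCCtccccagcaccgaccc
In the ANGPTL4 window, chr19:8363905-8364150, the capitals mark ACGTG on either strand, the core of a hypoxia response element, and TATAAA.
ANGPTL4: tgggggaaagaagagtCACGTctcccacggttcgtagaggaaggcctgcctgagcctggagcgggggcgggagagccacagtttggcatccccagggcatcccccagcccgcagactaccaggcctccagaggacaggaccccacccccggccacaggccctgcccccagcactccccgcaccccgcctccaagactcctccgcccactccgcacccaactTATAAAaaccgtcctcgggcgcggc
TIE1 held GGAA 4 times on either strand in 250 bases, and 92.7% of 35116 RefSeq windows of this length held it at least once. The longer ETS site CCGGAA was absent from the TIE1 window. It was held by 14.5% of all windows and 22.9% of those of tested genes. The printed 246 bases of ANGPTL4 held GGAA 2 times and ACGTG and TATAAA once each. ACGTG was held by 18.5% of all windows and 22.4% of those of tested genes, and TATAAA by 10.7% and 5.85%. The TIE1 window held 1 CpG and the printed ANGPTL4 window 15, where the median window of 250 bases held 11.

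Among the partners that carry TIE signals, 1 gene, PTPN11, passed limma's test. Of 27 receptor partners and signalling genes, 21 were tested, and 3 had an unadjusted p under 0.05, where 11.4% of all genes did. In both NONO libraries 3 were higher and 10 lower, where 37.8% and 34.5% of all genes were. Their median log2 fold was -0.11 with siRNA 1 and -0.1 with siRNA 2. PTPN11, coding for the phosphatase SHP2 that binds activated TEK, rose to 486 and 467 CPM with siRNAs 1 and 2, against 166 CPM with control siRNA. Its log2 folds were 1.54 and 1.48 (limma adjusted p = 0.0368), and it was called by edgeR (adjusted p = 0.00673) and by DESeq2. It was not called with TMM scaling (adjusted p = 0.0912), when a mean of 5 CPM was required (0.0687), without a trend (0.104) or without a filter (0.568). The share of all genes called higher was 0.136%. PTPN11 (transcript PTPN11-201) held 1 coding site each for both strands of siRNA 2 and none for the other siRNAs. Of the transcripts searched, 10.5% held the site of the complementary strand and 23.6% that of the labelled strand. AKT1, a kinase downstream of TEK, stood at 122 and 146 CPM, against 76.3 CPM (adjusted p = 0.235 in limma). SHC1, an adaptor, stood at 137 and 170 CPM, against 222 CPM, and PIK3CB, a PI3-kinase subunit, at 64.9 and 36.4 CPM, against 77.8 CPM. Neither of these passed the test.

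Transcription factors known to act on TIE or ANGPT2 genes included no call. Of 17 such genes 15 were tested, and none had an unadjusted p under 0.05 in limma, where 11.4% of all genes did. None was called by edgeR. In both NONO libraries 3 were higher and 9 lower, where 37.8% and 34.5% of all genes were. The medians were -0.25 and -0.21 for siRNAs 1 and 2. ETS1, an ETS factor, stood at 487 and 398 CPM, against 617 CPM (adjusted p = 0.446 in limma). RELA, an NF-kB subunit, stood at 133 and 127 CPM, against 175 CPM. KLF4 and ETS2 had log2 folds between 0.05 and 0.55.

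Integrins that can bind angiopoietins or ANGPTL proteins included no call. All 6 analysed were tested, and 4 lay lower and 1 higher in both NONO libraries, against 34.5% and 37.8% of all genes. An unadjusted p under 0.05 was found for 3 of them (ITGA5 and ITGA3, which were lower, and ITGB1, which was higher), against 11.4% of all genes, and edgeR called none. The medians were -0.54 and -0.14. ITGA5, which pairs with ITGB1 to bind fibronectin and serves as a receptor of ANGPTL2, stood at 220 and 246 CPM, against 391 CPM (adjusted p = 0.22 in limma). ITGB1 was the one that lay higher, at 2980 and 2820 CPM, against 2130 CPM. ITGB5 and ITGB3 had mean log2 folds of -0.18 and -0.55.

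The genes around ANGPTL4 were tested as the lipase system, the PPAR pathway and the hypoxia and glucocorticoid pathways, with no call in any. In the lipase system 7 of 12 genes were tested, with medians of 0.23 and 0.04. None had an unadjusted p under 0.05, where 11.4% of all genes did, and none was called by edgeR. FURIN and PCSK7, proteases of the family that cleaves ANGPTL4, had mean log2 folds of -0.41 and 0.41, LMF1, which matures lipases, -0.14, and SDC1, a heparan sulphate carrier, 0.19. In the PPAR list 8 of 11 were tested, again with no unadjusted p under 0.05 and no edgeR call. Of these, 6 were higher and 2 lower in both NONO libraries, where 37.8% and 34.5% of all genes were. PPARD, a PPAR that induces ANGPTL4, stood at 39.6 and 44.8 CPM, against 62.2 CPM. Its target PLIN2 had log2 folds of -0.36 and -0.13, whereas the targets CPT1A and SLC25A20 had 0.39 and 0.17, and 0.72 and 0.40.

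In the hypoxia and glucocorticoid list 15 of 16 were tested, and 6 had an unadjusted p under 0.05, against 11.4% of all genes, with no edgeR call. In both NONO libraries 6 were higher and 7 lower, where 37.8% and 34.5% of all genes were. HIF1A, the oxygen-regulated factor, stood at 222 and 216 CPM, against 356 CPM (adjusted p = 0.24 in limma). NDRG1, a hypoxia target, stood at 445 and 283 CPM, against 221 CPM. Other hypoxia targets were lower in both NONO libraries, with log2 folds of -0.68 and -0.61 for BNIP3 and -0.34 and -0.58 for PFKFB4. Those of PDK1 were -0.21 and -0.75, and those of CA9 -0.45 and -0.18. ADM had opposite signs (0.80 and -0.09), and ANKRD37 lay near the control (0.01 and 0.17). EPAS1, a regulator in the same list, stood higher at 545 and 579 CPM, against 359 CPM. The glucocorticoid targets differed in sign. FKBP5 stood at 54.8 and 65.0 CPM, against 30.4 CPM, and PER1 at 8.26 and 6.92 CPM, against 16.9 CPM (limma adjusted p = 0.186 for both). TSC22D3, another of these targets, had log2 folds of 0.03 and -0.73 (limma adjusted p = 0.77).

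**Figure D4:**
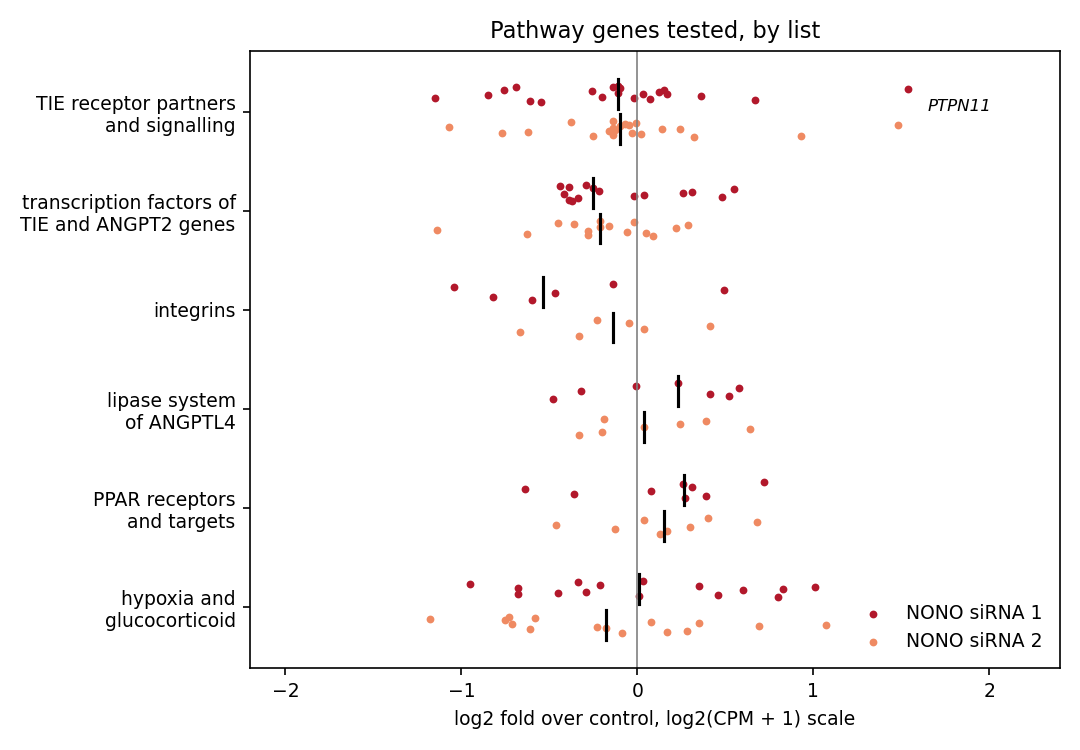
Log2 fold over control for the tested genes of 6 pathway lists with NONO siRNA 1 (upper row of each list) and NONO siRNA 2 (lower row); black bars are medians. PTPN11, at 1.54 and 1.48, lies furthest to the right and is the gene of these lists that passed limma's test.

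Markers of other cells that make or bind these factors were low throughout. The 6 pericyte and smooth muscle markers analysed summed to 5.03 and 8.50 CPM with siRNAs 1 and 2, against 5.78 CPM with control siRNA, none above 2.17 CPM. The 2 fibroblast markers analysed summed to 2.28 and 3.04 CPM, against 5.02 CPM, and the 3 leukocyte markers to 1.5 and 0.664 CPM, against 2.17 CPM. PLIN1, the adipocyte marker analysed, stayed at or under 0.105 CPM. None of the 9 of these markers that were tested was called by limma.

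Genes whose pattern came closest to that of TIE1 were found by the Euclidean distance over the 3 log2(CPM + 1) values, centred per gene, among 10436 other genes with a mean of 5 CPM or more. FAM171B was nearest (distance 0.0396), with 5.17 and 10.4 CPM with siRNAs 1 and 2, against 19.5 CPM with control siRNA. OAF (distance 0.0906) stood at 26.3 and 48.6 CPM, against 85.2 CPM, and ARHGEF40 (0.172) at 20.1 and 36.6 CPM, against 60.7 CPM. Only 6 genes lay within a distance of 0.2, and with 3 libraries such closeness carries no more than the order and size of 2 differences.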

How the data were processed

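RNA of UM-UC-3 cells was sequenced, with 2 NONO siRNA libraries, which the labels put in 1 group, and 1 control library. Per the submitters' processing notes, HTSeq 0.6.1, HISAT2 2.1.0, bcl2fastq 2.19.1 and the build hg19 (GRCh37) are listed, without roles. Their settings and the strand of counting are unknown here. The authors deposited CPM values per gene, without length normalization. Of the values, 99.3%, 99.5% and 99.3% (siRNA 1, siRNA 2, control) are whole multiples, within 0.01 reads, of 1 read. Values at 0.5 of a read were taken as 0. Gene identifiers were matched to symbols for 21049 of 21308 genes.

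The test was limma 3.58.1 with a trend (R 4.3.3) on log2(CPM + 1), over genes that reached 1 CPM in any library, two-sided, with Benjamini-Hochberg adjustment and a threshold of 0.05. Folds on this scale understate changes of low genes. It has 1 residual degree of freedom (7.68 prior) and assumes that the lone control library varies like the NONO libraries. Recovered reads were run in edgeR 4.0.16, on 16963 genes (156 called, 0.92%), and DESeq2 1.42.0. The limma and edgeR steps were tested on simulated data. These had a fixed spread and no difference between the NONO siRNAs, so they do not measure error rates in these libraries. Poisson and ratio intervals are exact at 95%.

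Members, pathway and marker lists were chosen with earlier results of these data known. The genes named were all members, genes overlapping them and list genes past the test. Named too were the 2 highest and 2 lowest mean folds per list at a mean of 5 CPM or more. The 3 genes nearest to the member with the largest fold were included. ANGPT4, ITGA3, EPAS1, BNIP3, PFKFB4, PDK1, CA9, ADM, ANKRD37, TSC22D3, NONO and the markers were added after their values were seen. Coordinates and exon lengths are those of GENCODE 29 on GRCh38, not of the build in the notes.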

Additional observations from a re-analysis of the deposited data

How the results depend on the processing

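The number of genes called depended on the settings, whereas no member was called under any alternative with a test. Against 19 higher and 11 lower genes, limma called 1 and 3 with TMM scaling, 161 and 80 with upper-quartile scaling, 0 and 0 without a filter on low values (1852 had an unadjusted p under 0.05, and NONO itself an adjusted p of 0.568), 2 and 3 when a mean of 5 CPM was required, and 0 and 3 without a trend. edgeR called 86 and 70 and DESeq2 138 and 60. The cause was not tested. TIE1 stayed negative and ANGPT1 positive under all 11 alternatives. These reuse the same 3 libraries, where both siRNAs lay on the same side of the control, so the kept sign is no independent check. Adjusted p values ran from 0.0507 (upper-quartile scaling) to 0.574 for TIE1 and from 0.428 to 0.737 for ANGPT1. Leaving out an siRNA library leaves 1 against 1, a value with no test. The log2 fold then ranged from -1.79 to -0.86 for TIE1, from 0.39 to 0.78 for ANGPT1 and from -0.37 to 0.26 for ANGPTL4. The sign of the mean turned for ANGPTL4 without siRNA 2 (0.26), for ANGPTL6 without siRNA 2 (0.03, against -0.09 without siRNA 1) and for ANGPT2 without siRNA 1 (0.02, against -0.21 without siRNA 2). The same alternatives were applied, after the data were seen, to the list genes named for their test result or mean fold. There the sign turned for LMF1 (0.04) and KRT8 (0.15) without siRNA 1 (-0.32 and -0.83 without siRNA 2) and for SDC1 (-0.01) without siRNA 2 (0.39 without siRNA 1). No paired analysis was possible because there is 1 control library. Depth limits TEK, ANGPT2 and ANGPTL6, which had at most 14 reads.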
